A study of Mus musculus with 19 samples.

Results

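The difference between tumor cells from obese and lean mice was averaged over 2 harvest days, and genes were sought whose difference had the same sign and a similar size on both. Of the 19 deposited libraries, 18 entered: all but lean day 21 replicate 4, whose counts stop on chromosome 5. A gene was called similar in size where its log2 differences at day 14 and day 21 had the same sign and the smaller was at least 0.5 of the larger. By that rule 1701 of the 16352 genes tested were members (10.4%), 878 of them higher in obese (5.37%) and 823 lower (5.03%). Every gene was examined with and without an adjustment for a trend of each library with the GC content of genes. After adjustment 2585 genes were members (15.8%), 1357 higher (8.30%) and 1228 lower (7.51%).

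The cells were E0771, a mouse mammary carcinoma line, carrying the fluorescent protein mCherry. All hosts were of the strain labelled c57bl6 and had the cells implanted in a mammary fat pad. The 4 groups were lean day 14 (4 libraries), obese day 14 (5), lean day 21 (4 used) and obese day 21 (5), and the sample names pair lean with Chow and obese with HFD. Each library came from mCherry-positive cells sorted from a dissociated tumor. The labels used here give no host age. All groups share the 1 tumor line. Libraries are described as separate tumors, so p-values measure the spread between tumors, and in bulk RNA fewer cells of a type and less RNA per cell cannot be told apart.

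A diet that makes the host obese changes the lipids, hormones and inflammatory signals that reach a mammary tumor, since the fat pad in which it grows stores fat. Tumor cells can take fatty acids from the surroundings or make them, and long-chain fatty acids must be joined to coenzyme A before they are stored, oxidised or built into membranes. Sterol and fatty acid synthesis genes are commonly controlled together by the SREBP transcription factors, which respond to the lipids in a cell. A difference present at 2 stages of growth is a description of what the diets share over time, whereas a difference at 1 stage may belong to that stage.

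The 18 libraries held 44174080 to 56996252 counts each. The library left out held 11889188 counts, in which 0 of 8411 genes that were well counted elsewhere on chromosomes 6 to 19, X and M had a count. The E0771 cells had high levels of Vim, a mesenchymal filament (median 5840 CPM, counts scaled to library size). Krt8, a simple-epithelial keratin, had a median of 28.1 CPM, while Krt18 was at most 0.0906 CPM. Krt7 and Krt19 were at 0 in 15 of the 18 libraries each. Epcam and Cdh1, epithelial adhesion genes, were at most 0.281 and 0.246 CPM, and Krt14, Krt5 and Cldn4 were at 0 in 16, 17 and 18 of the 18 libraries. Leukocyte genes were present, with Ptprc (CD45) at 0.579 to 27.5 CPM, in cells sorted only on mCherry as far as the labels say.

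Across all genes, the obese and lean difference at day 14 did not carry over to day 21. The 2 contrasts share no library. Their log2 differences had the same sign in 40.7% of genes (3268 of 16352 above and 3387 below 0 on both days), and Pearson's r across the 16352 genes was -0.17. After GC adjustment the same-sign share was 47.7% (3776 above and 4024 below) and r was -0.08. Genes are not independent replicates, so these values are descriptions of the libraries. The median size of the log2 difference was 0.55 at day 14, 0.18 at day 21 and 0.26 in the average.

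At day 14, the quasi-likelihood test of edgeR, adjusted by Benjamini and Hochberg's method at 0.05, called 2726 genes higher (16.7%) and 2099 lower (12.8%) in obese. Of these 4825 genes, 1729 (35.8%) had the same sign at day 21, and 63 (1.31%) were similar in size. Genes called at day 14 have large differences on that day, so a low share of similar size follows in part from how they were picked. The share with the same sign was 31.2% of the genes called higher and 41.8% of those called lower. With GC adjustment the day 14 calls were 354 higher (2.16%) and 448 lower (2.74%). Of these 802 genes, 340 (42.4%) kept their sign at day 21, 98 of the higher (27.7%) and 242 of the lower (54%), and 15 (1.87%) were similar in size. At day 21 edgeR called 1 gene higher (0.00612%) and 0 lower (0.00%), with 800 genes at an unadjusted p under 0.05. The number of day 14 calls rested on single libraries: it was 7946 without obese day 14 replicate 1, 2597 without lean replicate 1, 2625 without obese replicate 5, and 0 without lean replicate 2 or 3 or obese replicate 2 or 3 of that day. The day 21 call was lost without lean replicate 1, 2 or 5 or obese replicate 1, 3 or 5 of day 21.

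**Figure D1:**
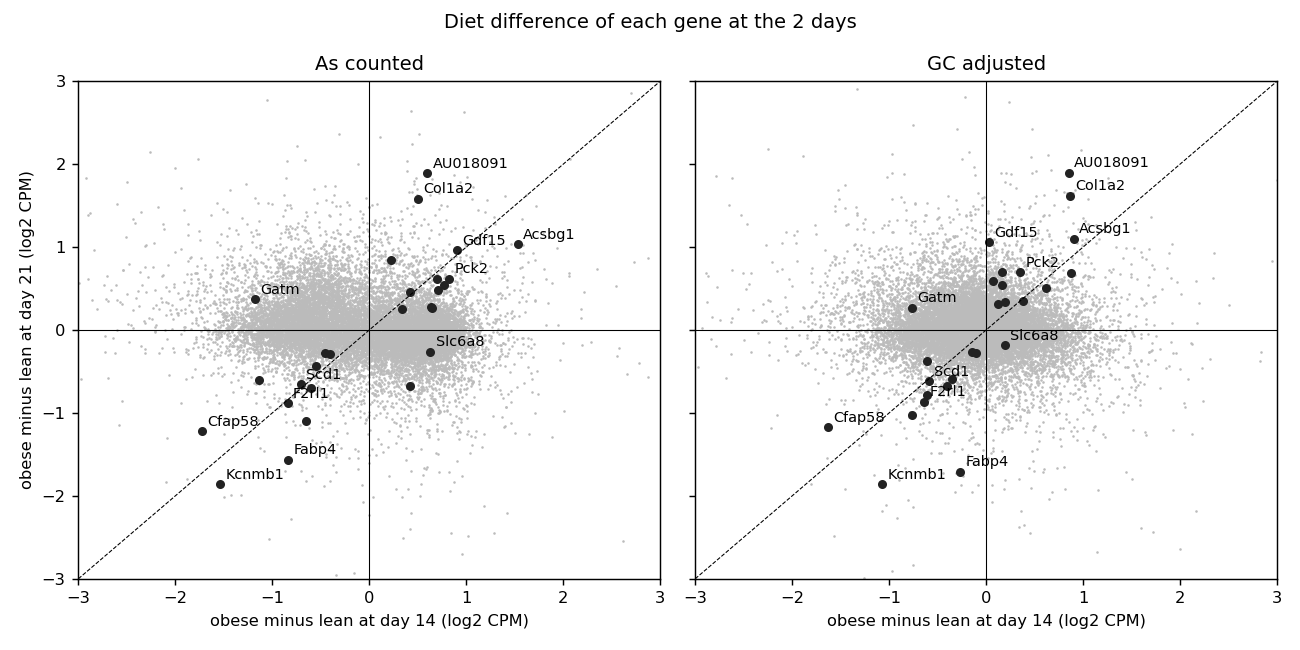
Each point is a gene, with its obese minus lean log2 difference at day 14 on the x axis and at day 21 on the y axis, as counted (left) and after GC adjustment (right). Black points are the 27 named genes, 12 of them labelled, the dashed line marks equal size on both days, and 31 (left) and 27 (right) genes lie beyond the axes at 3. The cloud does not follow the dashed line (r = -0.17 and -0.08). Scd1 lies near it in both panels, and Acsbg1, Kcnmb1 and Cfap58 were similar in size by the ratio of 0.5 in both.

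The difference at day 14 followed the GC content of genes. In the lowest of 10 equal bins of genes (median 40.6% GC), the median log2 difference was -0.64 at day 14 and 0.27 at day 21. In the highest bin (59.3% GC) it was 0.71 and -0.04. Averaged over the days, the medians of these 2 bins were -0.16 and 0.33. The share of genes with the same sign on both days was 26.4% in the lowest bin and 47.5% in the fifth bin (median 49.3% GC). After adjustment the share lay between 44.7% and 51.4% in all 10 bins, and the median of the average lay between -0.07 and 0.02.

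Each library had its own slope of log2 CPM on GC content, relative to the mean over libraries and given per 10 points of GC. In lean day 14 the slopes were 0.47, 0.11, 0.13 and 0.39. In obese day 14 they were 0.35, 1.62, 1.29, 0.71 and 1.09, so replicate 1 lay among the lean libraries and the other 4 above them. In lean day 21 they were -0.94, -0.07, -0.68 and -0.72, and in obese day 21 -0.78, -0.45, -0.70, -0.89 and -0.94, with the groups overlapping. The obese minus lean difference was 0.74 at day 14 (exact two-sided permutation p = 0.0476) and -0.15 at day 21 (exact p = 0.508). Averaged over the days it was 0.29 (exact p = 0.154, adjusted p = 0.309 over 14 library values).

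**Figure D2:**
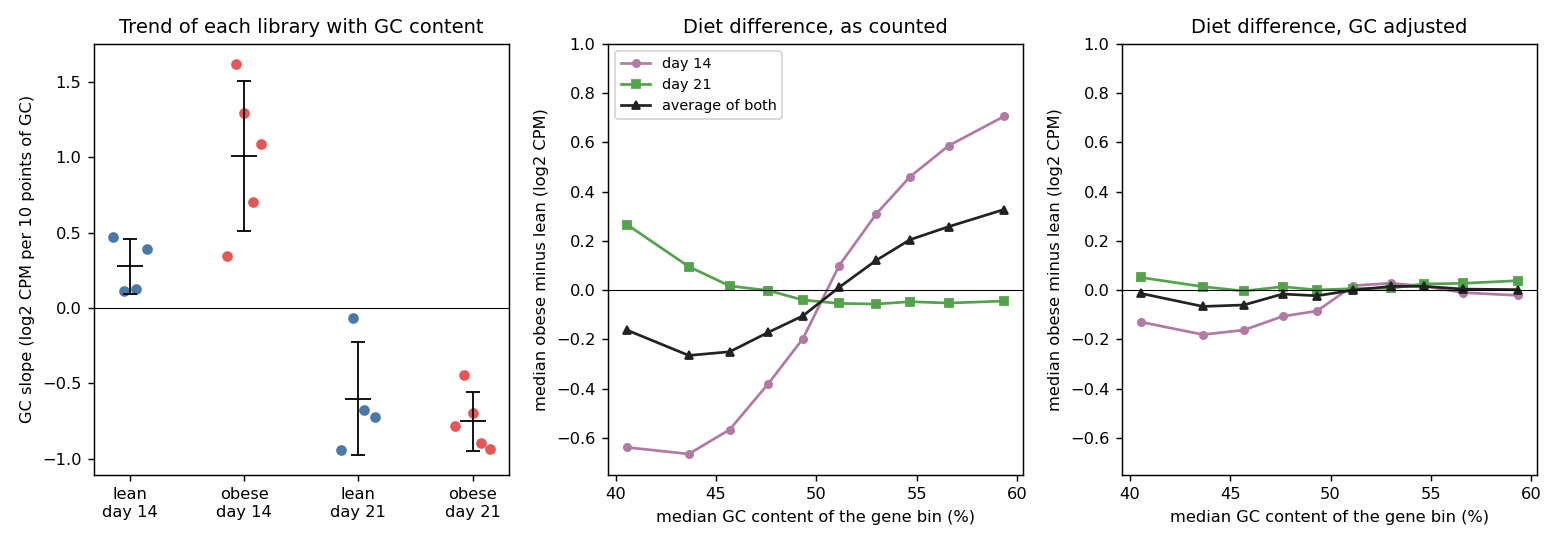
Left: GC slope of each library in log2 CPM per 10 points of GC (points), with the mean and SD of each group in black. Middle and right: median obese minus lean log2 difference of 10 equal bins of genes against the median GC content of the bin, as counted and after GC adjustment; the day 14 line climbs from -0.64 to 0.71 as counted and stays between -0.18 and 0.03 after adjustment.

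Averaged over both days, 1 gene passed the test. EdgeR's quasi-likelihood test called AU018091 higher in obese (0.00612% of genes) and 0 genes lower (0.00%), as counted and again after GC adjustment (0.00612% and 0.00%). Without adjustment, 1817 genes were higher (11.1%) and 1770 lower (10.8%) at an unadjusted p under 0.05, and after it 1141 (6.98%) and 1627 (9.95%). Of the genes at that unadjusted p, 274 higher (1.68%) and 265 lower (1.62%) were also similar in size, and after adjustment 312 (1.91%) and 369 (2.26%). The diet by day interaction called 0 genes in either direction (0.00%), with 2416 (14.8%) and 3035 (18.6%) at an unadjusted p under 0.05; it called 5656 without obese day 14 replicate 1.

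How many genes passed depended on the tool and on single libraries. DESeq2 called 60 genes, 23 higher and 37 lower, of which 58 (96.7%) had the same sign on both days and 28 (46.7%) were similar in size. Limma-voom with quality weights called 4831, of which 2610 (54%) had the same sign and 359 (7.43%) were similar in size. Over all genes tested these shares were 40.7% and 10.4%. Signs and sizes for both tools were taken from edgeR's differences in the 18 libraries. EdgeR called 2655 genes (856 higher and 1799 lower) without obese day 14 replicate 1, the library whose GC slope lay among the lean ones. Of these, 266 (10%) were similar in size by the differences of the 18-library fit. By the differences of the fit without that library, 190 (7.16%) were. EdgeR called 26 without obese day 21 replicate 4, and 0 without any of the 11 libraries listed below for AU018091. With GC adjustment the calls without obese day 14 replicate 1 and obese day 21 replicate 4 were 955 and 15. An average that is large tends to come from differences that agree, so the share of same signs among its calls is fixed in part by the contrast.

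AU018091 (ENSMUSG00000054753, chromosome 7, 3154664 to 3169203, minus strand, mm10) stood higher in obese at both days, by unequal amounts. Its level at day 14 was 3.33, 4.84, 3.11 and 4.25 CPM in lean and 8.04, 4.52, 4.93, 6.34 and 5.53 CPM in obese libraries. The day 21 levels were 0.315, 0.488, 0.847 and 0.663 CPM in lean and 2.10, 1.79, 2.81, 1.89 and 2.31 CPM in obese libraries. The groups overlapped at day 14 through obese replicate 2, and at day 21 every obese library was above every lean one. The averaged log2 difference was 1.24 ± 0.18 (SE; adjusted p = 0.0258, edgeR), 0.60 ± 0.25 at day 14 (adjusted p = 0.0691) and 1.89 ± 0.27 at day 21 (adjusted p = 0.0190).

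The smaller of these was 0.32 of the larger, so AU018091 was not similar in size. The test of the difference between the days gave a log2 value of 1.29 ± 0.36 (adjusted p = 0.0983, edgeR). After GC adjustment the average was 1.37 ± 0.17 (adjusted p = 0.00158), with 0.85 at day 14 and 1.90 at day 21, and the groups did not overlap on either day. DESeq2 and limma-voom also called it (adjusted p = 2.2e-07 and 0.00717). The edgeR call held in 7 of the 18 fits that left out a library and after GC adjustment. It was lost (adjusted p = 0.0575 to 0.159) without lean day 14 replicate 1, 3 or 4, lean day 21 replicate 1, 2 or 5, obese day 14 replicate 4 or 5, or obese day 21 replicate 1, 3 or 5, with averages of 1.13 to 1.28. It was also lost with an additive model of diet and day (1.19, adjusted p = 0.199), with a covariate for the level of pan-leukocyte genes (1.21, adjusted p = 0.203) and with all 19 libraries (1.39, adjusted p = 1), by edgeR. With the replicate number as a block the call was lost as well (1.24, adjusted p = 0.141, edgeR). The sign of AU018091 was kept in all 30 alternatives.

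The genes that came closest under the naming rule were 27, of which 24 had the same sign on both days and 19 were similar in size. None but AU018091 passed edgeR's test, so their values are given without a verb of change. Adjusted p-values were 0.176 to 0.218 for the 23 others with the same sign. After GC adjustment the average kept its sign in 27 of 27, became smaller in 21 and larger in 6, and 12 genes were similar in size both ways. DESeq2 called 15 of the 27, and edgeR without obese day 14 replicate 1 called 23. The rule picked by similar size or no overlap on both days and by small edgeR p-values in these same libraries. The counts in this paragraph thus follow in part from how the genes were picked.

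The regions just upstream of the transcription start are shown for 4 of these genes: Acsbg1 and Kcnmb1, which had the highest and the lowest average among the named genes similar in size with and without adjustment, and Fosb and Gdf15, whose differences were nearly equal at the 2 days as counted. They are RefSeq sequences on GRCm38.p6, 5′ to 3′ on the strand of the gene, and end at the base before the start. Capitals mark GGGCGG (the GC box) in Fosb and AGGTCA (a motif of nuclear receptors) in Gdf15.
Acsbg1, chr9:54661886-54662135, minus strand: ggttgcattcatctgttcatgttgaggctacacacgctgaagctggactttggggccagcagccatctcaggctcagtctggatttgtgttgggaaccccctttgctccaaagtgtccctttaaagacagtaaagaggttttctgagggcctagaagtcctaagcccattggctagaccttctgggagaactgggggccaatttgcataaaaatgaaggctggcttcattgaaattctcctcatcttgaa
Kcnmb1, chr11:33962763-33963012, plus strand: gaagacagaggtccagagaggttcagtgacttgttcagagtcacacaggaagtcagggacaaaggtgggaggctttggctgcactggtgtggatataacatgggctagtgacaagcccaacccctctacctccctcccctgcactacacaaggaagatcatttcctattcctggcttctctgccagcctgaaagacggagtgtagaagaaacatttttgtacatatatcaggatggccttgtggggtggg
Fosb, chr7:19310046-19310295, minus strand: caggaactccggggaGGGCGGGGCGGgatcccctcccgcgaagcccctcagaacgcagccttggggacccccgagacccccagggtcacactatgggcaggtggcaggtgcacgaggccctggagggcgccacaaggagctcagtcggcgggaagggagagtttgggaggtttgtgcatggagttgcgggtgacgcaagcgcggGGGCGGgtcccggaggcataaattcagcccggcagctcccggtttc
Gdf15, chr8:70632457-70632706, minus strand: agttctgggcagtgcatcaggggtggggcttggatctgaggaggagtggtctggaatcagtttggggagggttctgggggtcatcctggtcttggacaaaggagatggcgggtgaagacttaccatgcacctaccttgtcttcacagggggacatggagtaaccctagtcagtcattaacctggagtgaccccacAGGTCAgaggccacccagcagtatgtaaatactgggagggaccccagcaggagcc
These promoters held 48.4% (Acsbg1), 50.8% (Kcnmb1), 68.8% (Fosb) and 56.4% (Gdf15) GC. Both strands were searched for 5 motifs in the promoters of the 18 named genes with an entry: AGGTCA was in 3 (16.7%), GGGCGG in 8 (44.4%) and TATAAA in 1 (5.56%). Of 32851 promoters of the same length, 14.0%, 32.7% and 12.4% held them. TTGCATCA, the core of an amino acid response element, and TGACGTCA, the cAMP response element, were in 0 of 18, and in 0.791% and 1.55% of all. Acsbg1 and Kcnmb1 held none of the 5 sequences in this window. The 3 GGGCGG of Fosb include 2 that overlap by a base.

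Among genes of fatty acid activation, Acsbg1 had the largest difference shared by the days. It encodes an acyl-CoA synthetase of the bubblegum family (chromosome 9, 54604877 to 54661870, minus strand). Its level at day 14 was 2.97, 5.08, 6.03 and 8.71 CPM in lean and 9.30, 26.4, 16.6, 14.9 and 14.9 CPM in obese libraries. At day 21 lean libraries held 2.93, 4.95, 8.70 and 5.17 CPM and obese libraries 12.4, 10.6, 16.4, 8.93 and 7.38 CPM. Every obese library was above every lean one at day 14, and at day 21 obese replicate 5 lay below lean replicate 3. The average log2 difference was 1.28 ± 0.25 (adjusted p = 0.176, edgeR), 1.53 at day 14 and 1.03 at day 21, and the interaction had an unadjusted p of 0.312.

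After GC adjustment Acsbg1 stood at 1.00 ± 0.21 (adjusted p = 0.203, edgeR), with 0.90 and 1.10 at the 2 days, which is closer to equal than as counted. DESeq2 gave an adjusted p of 0.000849. Of the 15 acyl-CoA synthetase genes tested, 5 were above 0 on both days and 3 below, and their median as counted was 0.40 at day 14 and 0.03 at day 21, beside 0.00 and 0.00 over all genes. After GC adjustment the medians were -0.08 and 0.07, with 4 above 0 on both days and 3 below. Acsl3, a synthetase that feeds lipid droplets, had values below 0, -1.0 at day 14 and -0.38 at day 21 as counted and -0.55 and -0.43 after adjustment.

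Fabp4, a fatty acid binding protein of adipocytes, macrophages and capillary endothelium, was lower on both days (chromosome 3, 10204347 to 10208576, minus strand). At day 14 it stood at 8.01, 5.34, 9.55 and 5.86 CPM in lean and 3.03, 2.18, 3.85, 6.74 and 4.30 CPM in obese libraries. In lean day 21 libraries the levels were 32.0, 32.7, 79.3 and 18.9 CPM, and in obese ones 10.7, 17.3, 11.3, 16.9 and 12.7 CPM. The groups overlapped at day 14 through obese replicate 4 and were apart at day 21. The average was -1.20 ± 0.25 (adjusted p = 0.208, edgeR), -0.84 at day 14 and -1.57 at day 21. GC adjustment left -0.99, but the day 14 value became -0.27 beside -1.71 at day 21, so the gene was no longer similar in size.

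Macrophage and leukocyte markers were lower in obese at day 14 along with Fabp4. The mean log2 CPM of 20 macrophage markers was 3.19 to 4.33 in lean and 2.65 to 3.60 in obese day 14 libraries, and 3.29 to 3.80 and 2.56 to 4.92 at day 21. Its averaged difference was -0.63 (exact two-sided stratified permutation p = 0.0494, adjusted p = 0.231 over 14 values). It came from -1.01 at day 14 (exact p = 0.0238) and -0.24 at day 21 (exact p = 0.6825). Obese day 21 replicate 4 held the highest mean, 4.92, and without it the averaged difference was -0.82 (adjusted p = 0.0175 by the same test). That was the only 1 of the 18 fits with a library left out that passed 0.05. Of the 20 markers 7 were below 0 on both days and 0 above, with medians of -0.88 and 0.03. None of the 20 was at 0 in any library. Of the other adipocyte markers, Adipoq, Lep and Retn were at 0 in 12, 14 and 12 of the 18 libraries. Cidec, Car3 and Cfd were at 0 in 11, 4 and 1 of them. Lipe (2.03 to 14.3 CPM) and Pparg (0.325 to 4.63 CPM) had counts in every library. The part of other cell types in the Fabp4 value was not tested.

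Plin1, the perilipin that coats the lipid droplets of adipocytes, lay below the 1 CPM of the naming rule and is given after its values were seen. Its counts at day 14 were 1, 7, 5 and 10 in lean and 48, 97, 37, 84 and 81 in obese libraries. Day 21 gave 0, 0, 0 and 0 in lean and 1, 21, 0, 0 and 5 in obese libraries. The day 14 groups were apart, whereas 2 of 5 obese day 21 libraries had 0 counts as well, so the day 21 value rested on 3 libraries and no fold is given. DESeq2 called Plin1 (adjusted p = 0.000272) and edgeR did not (adjusted p = 0.208).

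The lipid droplet and fatty acid storage list held 18 tested genes, 8 above 0 on both days and 2 below. Its median was 0.68 at day 14 and 0.08 at day 21 (0.20 and 0.15 after GC adjustment). Plin2, the droplet coat of most cells, stood at 290.4, 259, 258 and 290.4 CPM in lean and 342, 694, 559, 447 and 352 CPM in obese libraries at day 14. The lean day 21 libraries stood at 182, 180.2, 181 and 175 CPM, and the obese ones at 244, 231, 215, 225 and 157 CPM. The groups were apart at day 14, and at day 21 obese replicate 5 alone lay below the lean libraries.

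Plin2 had an average of 0.53 ± 0.13 (adjusted p = 0.218, edgeR) and of 0.52 after GC adjustment, with 0.80 at day 14 and 0.26 at day 21. Angptl4, a secreted inhibitor of lipoprotein lipase, had 1.04 at day 14 and 0.26 at day 21. Hilpda, an inhibitor of droplet lipolysis, was the more even of these, with 0.85 at day 14 and 0.71 at day 21 (average 0.78 ± 0.20, adjusted p = 0.218, edgeR). It was named after its values were seen, as 1 of the 60 genes that DESeq2 called.

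Of the 16 fatty acid synthesis genes tested, 0 were above 0 on both days and 6 below, and 0 were called. Scd1, the stearoyl-CoA desaturase that makes monounsaturated fatty acids (chromosome 19, 44394451 to 44407709, minus strand), stood at 164, 169, 157 and 156 CPM in lean day 14 and 139, 51.9, 56.9, 98.5 and 147 CPM in obese day 14 libraries. The day 21 levels were 155, 180.0, 129 and 153 CPM in lean and 96.4, 124, 90.8, 90.4 and 88.3 CPM in obese libraries. Every obese library was below every lean one on both days, although obese day 14 replicates 1 and 5 came close. The average was -0.68 ± 0.17 (adjusted p = 0.218, edgeR), -0.71 at day 14 and -0.66 at day 21, and -0.60 after GC adjustment with -0.59 and -0.62.

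Scd2, the related desaturase, had -0.55 at day 14 and -0.43 at day 21, and Acaca, the acetyl-CoA carboxylase that starts the pathway, -0.60 and -0.12. The median of the fatty acid synthesis list was -0.27 at day 14 and -0.15 at day 21, and after GC adjustment -0.06 and -0.12 with 2 above 0 on both days and 9 below. Lpin1, a phosphatidate phosphatase of triglyceride synthesis, stood at 18.4 to 23.6 CPM in lean and 10.8 to 19 CPM in obese day 14 libraries. At day 21 it stood at 16.6 to 24 and 13.3 to 16.9 CPM, so the groups overlapped slightly on both days. Its average was -0.49 ± 0.13, and -0.49 ± 0.11 after adjustment (adjusted p = 0.218 and 0.203, edgeR).

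The cholesterol synthesis list was split at day 14 and lower at day 21. Of its 26 genes, 11 were below 0 on both days and 0 above, and the medians were 0.17 at day 14 and -0.60 at day 21. In size, 7 of the 26 were similar, beside 10.4% of all genes. Hmgcs1, the HMG-CoA synthase of the early steps, had -0.83 at day 14 and -0.60 at day 21, and Hsd17b7, an enzyme of the later steps, -1.07 and -0.43. After GC adjustment 12 of the 26 genes were below 0 on both days and 0 above, with medians of 0.01 and -0.58.

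Genes of amino acid supply and the integrated stress response were above 0 more often than below on both days. Of 25 ATF4 and unfolded protein response genes, 16 were above 0 on both days and 0 below. Their medians were 0.36 at day 14 and 0.14 at day 21, and after GC adjustment -0.04 and 0.18 with 12 above and 3 below. Slc7a5, the large neutral amino acid transporter, had 1.11 at day 14 and 0.15 at day 21, Shmt2, the mitochondrial serine hydroxymethyltransferase, 0.99 and 0.24, and Phgdh, the first enzyme of serine synthesis, 0.94 and 0.20. As counted these were larger at day 14 and not similar in size. After GC adjustment Slc7a5 had 0.48 and 0.21, Shmt2 0.29 and 0.31, and Phgdh 0.37 and 0.28, of which Shmt2 and Phgdh were similar in size.

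Pck2, the mitochondrial phosphoenolpyruvate carboxykinase (chromosome 14, 55540266 to 55550017, plus strand), was more even. It stood at 66.1, 55.4, 57.3 and 78.4 CPM in lean and 65.4, 181, 144, 87.5 and 92.1 CPM in obese libraries at day 14. In lean day 21 libraries the levels were 29.8, 41.1, 21.7 and 38.6 CPM, and in obese ones 48.7, 55.0, 51.8, 53.9 and 42.0 CPM. Obese day 14 replicate 1 lay within the lean range, and the groups were apart at day 21. The average was 0.72 ± 0.18 (adjusted p = 0.218, edgeR), 0.83 at day 14 and 0.62 at day 21, and 0.52 ± 0.12 after GC adjustment with 0.35 and 0.69.

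Gdf15, a secreted stress-response cytokine (chromosome 8, 70629393 to 70632456, minus strand), stood at 5.64, 5.82, 7.64 and 7.54 CPM in lean and 7.42, 19.4, 19, 6.58 and 9.90 CPM in obese libraries at day 14. Day 21 gave 3.88, 6.44, 2.88 and 7.65 CPM in lean and 11.2, 7.77, 11.3, 13.2 and 7.36 CPM in obese libraries. The groups overlapped on both days. As counted the days were nearly equal, 0.90 and 0.96 (average 0.93 ± 0.24, adjusted p = 0.218, edgeR). After GC adjustment they were 0.03 and 1.06, so this gene, with 61.7% GC, was no longer similar in size.

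Smox, spermine oxidase, and Fosb, a subunit of the AP-1 transcription factor, followed the same course. Smox had 0.77 at day 14 and 0.54 at day 21 as counted, and 0.07 and 0.59 after GC adjustment. It stood at 42.6 to 63.5 CPM in lean and 61.1 to 139 CPM in obese day 14 libraries, and at 36.8 to 47.9 and 53 to 65.5 CPM at day 21, apart at day 21 only. Fosb stood at 239, 174, 190.2 and 199 CPM in lean and 238, 376, 344, 379.6 and 285 CPM in obese libraries at day 14. The lean day 21 libraries stood at 92.3, 189.8, 142 and 212 CPM, and the obese ones at 166, 256, 288, 244 and 262 CPM, and the lowest obese library was within the lean range on both days.

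Fosb had 0.69 at day 14 and 0.61 at day 21 (average 0.65 ± 0.16, adjusted p = 0.218, edgeR), and 0.16 and 0.70 after GC adjustment. The 25 immediate early and heat shock genes as a list had medians of -0.10 and 0.10, with 8 above 0 on both days and 6 below, so Fosb stood apart from most of them.

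Slc7a3, a cationic amino acid transporter on the X chromosome (101079210 to 101086020, minus strand), was 1 of the 6 named genes with a larger average after GC adjustment. It stood at 10.1, 8.27, 7.10 and 8.35 CPM in lean and 12.4, 12.5, 11.6, 11.5 and 8.62 CPM in obese day 14 libraries. The day 21 levels were 8.16, 4.60, 4.66 and 5.42 CPM in lean and 7.73, 7.40, 9.54, 7.63 and 6.86 CPM in obese libraries. A single library set each overlap, obese replicate 5 at day 14 and lean replicate 1 at day 21. The average was 0.44 ± 0.14 as counted and 0.56 ± 0.13 adjusted (adjusted p = 0.218 and 0.217, edgeR), with 0.61 and 0.50 at the 2 days after adjustment. The solute and amino acid transport list, which also holds AU018091, had 9 of 15 genes above 0 on both days and 2 below.

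Kcnmb1 had the most negative average of the named genes. It encodes the beta 1 subunit of the large-conductance calcium-activated potassium channel (chromosome 11, 33963013 to 33973641, plus strand). It stood at 3.59, 1.51, 1.85 and 2.42 CPM in lean and 0.258, 1.53, 1.24, 0.511 and 0.560 CPM in obese libraries at day 14. At day 21 lean libraries held 11.7, 11.8, 3.87 and 4.92 CPM and obese libraries 1.40, 3.75, 2.62, 1.62 and 1.71 CPM. The groups were apart at day 21 and overlapped by 1 library at day 14. The average was -1.70 ± 0.32 (adjusted p = 0.176, edgeR), -1.53 at day 14 and -1.86 at day 21, and -1.46 ± 0.36 after GC adjustment with -1.07 and -1.86.

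Cfap58, a protein of cilia and flagella (chromosome 19, 47937712 to 48035379, plus strand), stood at 1.28, 1.30, 1.32 and 1.30 CPM in lean and 0.677, 0.301, 0.0732, 0.621 and 0.235 CPM in obese libraries at day 14. In lean day 21 libraries the levels were 7.16, 2.29, 3.37 and 5.33 CPM, and in obese ones 1.20, 1.24, 3.30, 2.59 and 1.39 CPM. The groups were apart at day 14, and at day 21 obese replicates 3 and 4 overlapped the lean range. Its differences of -1.73 and -1.22 hardly moved with GC adjustment, to -1.64 and -1.17 (average -1.47 ± 0.31 and -1.40 ± 0.30, adjusted p = 0.208 and 0.203, edgeR).

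F2rl1, the protease-activated receptor 2 (chromosome 13, 95511732 to 95525240, minus strand), had the most equal pair of differences of the 27 named genes as counted, -0.84 at day 14 and -0.88 at day 21. After GC adjustment they were -0.64 and -0.86, and the pairs of Scd1, Clpb and Acsbg1 were among those more equal. It stood at 8.48, 8.53, 7.42 and 5.23 CPM in lean and 6.82, 2.85, 2.32, 4.31 and 4.33 CPM in obese libraries at day 14. Day 21 gave 6.65, 11.6, 9.36 and 7.71 CPM in lean and 4.01, 5.00, 6.66, 4.09 and 4.24 CPM in obese libraries. Obese replicate 1 at day 14 and obese replicate 3 at day 21 set the overlap. The average was -0.86 ± 0.19 (adjusted p = 0.218, edgeR) and -0.75 ± 0.17 after GC adjustment.

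Rab19, a small GTPase (chromosome 6, 39381175 to 39390380, plus strand), stood at 1.51, 1.73, 1.06 and 1.38 CPM in lean and 0.693, 0.857, 0.732, 1.06 and 1.17 CPM in obese libraries at day 14. The lean day 21 libraries stood at 1.26, 1.71, 1.17 and 1.25 CPM, and the obese ones at 0.681, 0.701, 0.531, 0.697 and 0.537 CPM. The groups were apart at day 21, and on both days after GC adjustment. The average was -0.87 ± 0.17 and -0.90 ± 0.16 adjusted (adjusted p = 0.176 and 0.117, edgeR). Ap3s1, a subunit of the AP-3 adaptor complex, had -1.14 and -0.60 as counted and -0.61 and -0.79 after adjustment.

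**Figure D3:**
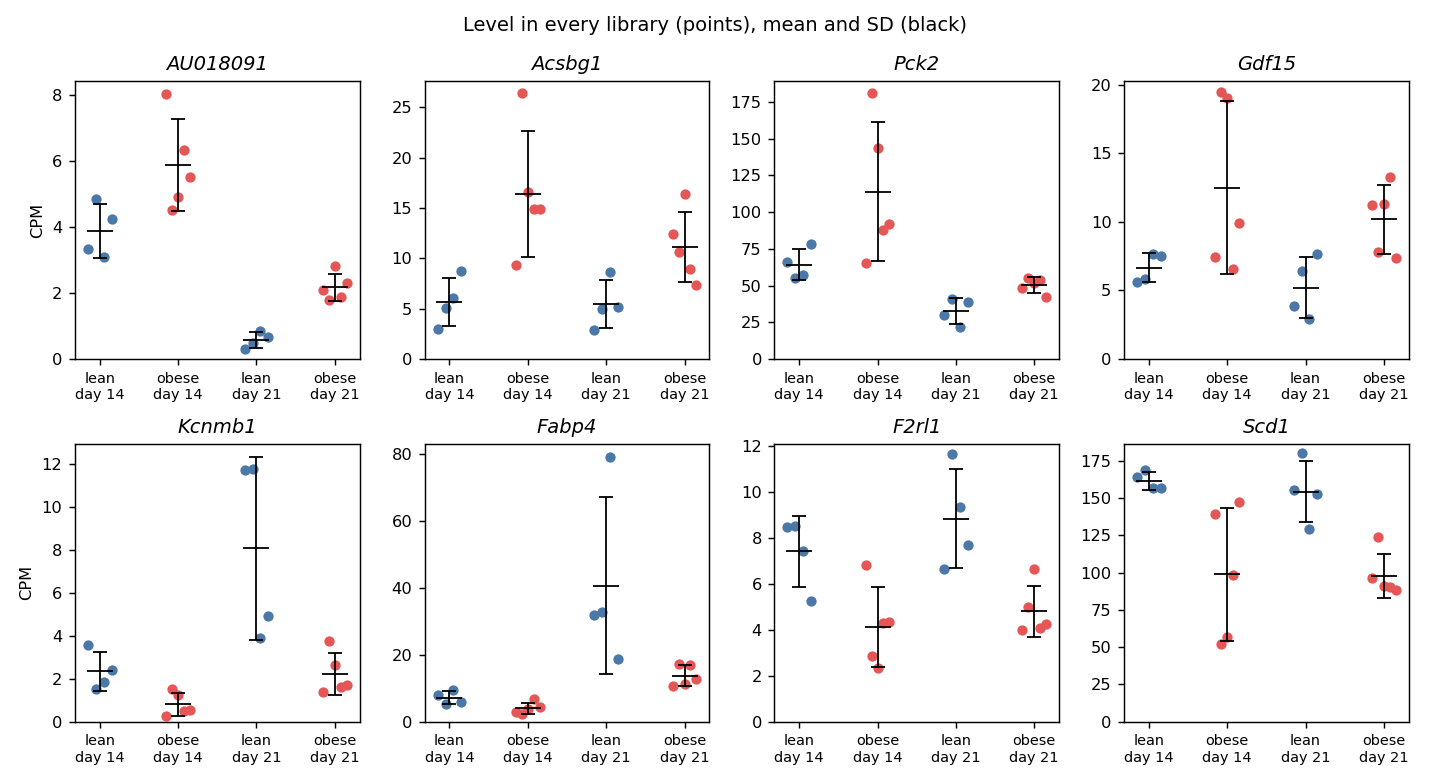
Level in CPM (y axis, from 0) of 8 genes in every library of the 4 groups, lean in blue and obese in red, with the mean and SD of each group in black. The 4 genes of the upper row had higher obese means on both days, and the 4 of the lower row had lower ones; the groups are apart on both days in Scd1 only.

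Only 10 genes (0.0612%) had no overlap between lean and obese libraries on either day as counted, 3 higher and 7 lower in obese. After GC adjustment the number was again 10 (0.0612%), 4 higher and 6 lower, and 0 genes were in both sets. As counted there were 45 without obese day 14 replicate 1, and 16 to 25 without lean day 14 replicate 3 or 4, lean day 21 replicate 2, 3 or 5, or obese day 21 replicate 2, 4 or 5. With a library left out the rule is easier to meet, so a rise follows in part from the rule. Besides Scd1, the set as counted held Scg5, the 7B2 chaperone of a prohormone convertase (average -0.66 ± 0.18), Kctd13, a cullin-3 adaptor (0.46 ± 0.14), Rdh11, a retinol dehydrogenase (-0.34 ± 0.12), Zbtb8os, the archease of the tRNA ligase complex (-0.37 ± 0.13), and Arv1, a protein of sterol transport (0.29 ± 0.10). Adjusted p was 0.218 for each of these by edgeR. With GC adjustment the averages were -0.54 for Scg5, 0.26 for Kctd13, -0.20 for Rdh11, -0.19 for Zbtb8os and 0.22 for Arv1, and the day 14 value of Zbtb8os was -0.10.

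Scg5 stood at 3.96, 3.72, 4.90 and 3.80 CPM in lean and 3.69, 1.27, 3.58, 3.16 and 1.73 CPM in obese libraries at day 14, with obese replicate 1 just below the lean libraries. The day 21 levels were 6.93, 8.18, 9.66 and 5.99 CPM in lean and 5.37, 4.96, 4.67, 3.80 and 4.77 CPM in obese libraries. The gap was thus wider at day 21. Clpb, a mitochondrial disaggregase, had the same sign in every fit, with 0.46 ± 0.12 as counted and 0.36 ± 0.09 adjusted. Thoc6, of the mRNA export complex THO, had 0.70 and 0.48 as counted, and 0.17 and 0.54 after adjustment.

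The left-out library could be set beside the others only for genes on chromosomes 1 to 4, as CPM over those chromosomes. Fabp4 was 78.1 there, below the 93.3 to 386 of the 4 lean day 21 libraries and within the 51.9 to 88.3 of the obese ones. Smox was 131, below the 179 to 230 of lean and the 249.6 to 319.6 of obese libraries at day 21. Scg5 was 29.6, within the 29.6 to 47.0 of lean, and Zbtb8os was 18.1, within the 14.8 to 18.4 of obese libraries. Gatm was 498, above the 155 to 432 of lean and the 296 to 363 of obese libraries at day 21. Zfp978 was 20.2, above the 7.6 to 18.6 of lean and within the 16.5 to 30.05 of obese libraries at day 21. For Fabp4 and Zbtb8os the lean and obese ranges at day 21 would overlap with the left-out library.

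Among matrix genes, Col1a2, a chain of type I collagen (chromosome 6, 4504814 to 4541543, plus strand), had differences of the same sign that were unequal as counted. It stood at 5.98, 3.72, 2.27 and 6.10 CPM in lean and 6.56, 6.07, 8.19, 4.82 and 6.38 CPM in obese libraries at day 14. At day 21 lean libraries held 1.67, 0.600, 0.303 and 1.54 CPM and obese libraries 2.30, 3.52, 4.48, 3.15 and 1.77 CPM, with the groups apart. The average was 1.04 ± 0.28 and 1.24 ± 0.29 adjusted (adjusted p = 0.218 and 0.217, edgeR), from 0.50 and 1.58 as counted and 0.86 and 1.62 adjusted, the latter similar in size by the ratio of 0.5. Col1a1, the other chain, had 0.73 and 1.5.

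Of 14 fibroblast markers, 7 were above 0 on both days and 2 below, with medians of 0.32 and 0.34. Their mean log2 CPM had an averaged difference of 0.30 (exact two-sided stratified permutation p = 0.0383, adjusted p = 0.231 over 14 values), from 0.10 at day 14 (exact p = 0.643) and 0.51 at day 21 (exact p = 0.0159). Pdgfra, another of the 14, was lower, with -1.0 at day 14 and -0.25 at day 21, at a mean of 285 CPM over the libraries. Levels within the list differed widely. Col6a3, Col3a1 and Dpt had medians of 2920, 1810 and 373 CPM, and Fap and Pi16 of 0.0852 and 0.27 CPM. Which cells these transcripts came from, and whether fibroblasts among the sorted cells took part in the collagen values, was not tested.

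Creatine genes named in earlier work on these data did not share a sign. Slc6a8, the creatine transporter, had 0.63 at day 14 and -0.26 at day 21, and Gatm, the first enzyme of creatine synthesis, had -1.18 and 0.37. Their averages were 0.18 ± 0.12 and -0.41 ± 0.29 (adjusted p = 0.354 and 0.370, edgeR), and 0.00 and -0.25 after GC adjustment. With a library left out, the average of Gatm ranged from -0.71 without obese day 14 replicate 1, where edgeR called it (adjusted p = 0.0379), to -0.21 without lean day 21 replicate 5. Limma-voom also called Gatm (-0.71, adjusted p = 0.0173). In the left-out lean day 21 library Gatm stood above every obese library of that day, as given above, so its day 21 sign depends on the libraries used. The average of Slc6a8 ranged from 0.09 without lean day 21 replicate 1 to 0.26 without lean day 21 replicate 3, with no call. Tmem119, a transmembrane protein used as a microglia marker, had the same sign on both days only after adjustment. As counted it had 0.42 and -0.67, and after adjustment -0.35 and -0.59, with the groups apart on both days. Zfp978, a zinc finger gene of 41.3% GC, went from 0.23 and 0.84 to 0.88 and 0.69.

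**Figure D4:**
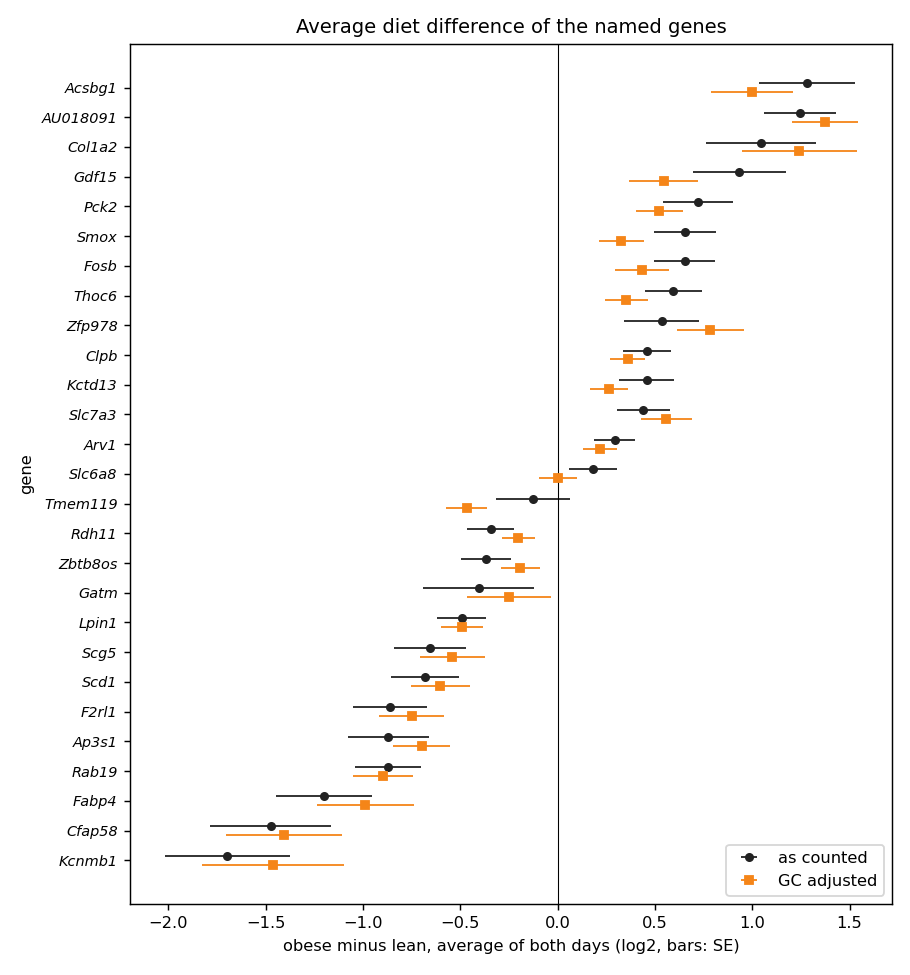
Obese minus lean log2 difference averaged over both days (x axis) for the 27 named genes (y axis), as counted in black and after GC adjustment in orange, with SE bars. The sign was kept in 27 of 27; 21 moved toward 0, Smox and Gdf15 among them, and AU018091, Col1a2, Slc7a3 and Zfp978 were among the 6 that moved away.

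The genes with an unadjusted p under 0.05 and a similar size differed by direction in GC content. The 274 higher genes had a median of 54.7% GC and the 265 lower genes 48.3%, beside 50.2% over all genes tested. After adjustment the medians of the 312 higher and 369 lower genes were 50.8% and 48.5%. The higher genes as counted were also low in level, with a median of 3.02 CPM against 11.2 CPM for the lower genes and 12.9 CPM over all. Protein-coding genes made up 77.7% of the higher and 85.7% of the lower set, and 79.9% of all. Just inside the size rule lay Ube2v1 (0.43 and 0.22) and Plaur (0.42 and 0.21), and just outside it Ccdc93 (-0.63 and -0.31) and Zfp235 (-0.63 and -0.32).

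The medians of several pathway lists had opposite signs on the 2 days as counted. The 36 interferon-stimulated genes had medians of -0.60 and 0.39, the 25 replication-dependent histone genes 1.26 and -0.23, and the 73 nuclear oxidative phosphorylation genes 0.58 and -0.10. Fatty acid oxidation (25 genes) had 0.28 and -0.13, and glycolysis (23 genes) 0.37 and -0.01. GC adjustment kept these signs at day 14, put the glycolysis medians at 0.07 and 0.04, on the same side of 0, and brought the histone median to 0.78 and the oxidative phosphorylation median to 0.42. Members above 0 on both days were 9 of 36, 1 of 25 and 13 of 73 in the first 3 lists, beside 3268 of all 16352 genes. Histone genes have near-identical copies, so their counts are uncertain.

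Of the 74 cytoplasmic ribosomal protein genes, 30 were above 0 on both days and 2 below, although their medians were 0.49 at day 14 and -0.03 at day 21. After GC adjustment 38 were above and 2 below, with medians of 0.26 and 0.03. The 25 matrix remodelling genes had 0.14 and 0.15 as counted, which became -0.16 and 0.21. The inflammatory cytokine list held 8 of 25 genes similar in size, beside 1701 of all 16352 genes (10.4%). It is given because its share was the largest of the lists with at least 20 genes. Its members went in both directions: Saa3, an acute phase protein, had 1.06 and 1.72, and Csf3, the granulocyte colony-stimulating factor at a mean of 0.632 CPM, 1.57 and 1.34. Ccl20, a chemokine at a mean of 0.128 CPM and thus of few counts, had -2.08 and -1.30. Csf3 stood at 2.52 CPM in obese day 14 replicate 2, at 0.256 to 0.634 CPM in the other 4 obese libraries of that day and at 0.123 to 0.337 CPM in the lean ones, so its day 14 value rested mostly on 1 library. None of these 3 genes passed edgeR's test, and the 34 gene lists were described without a test.

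**Figure D5:**
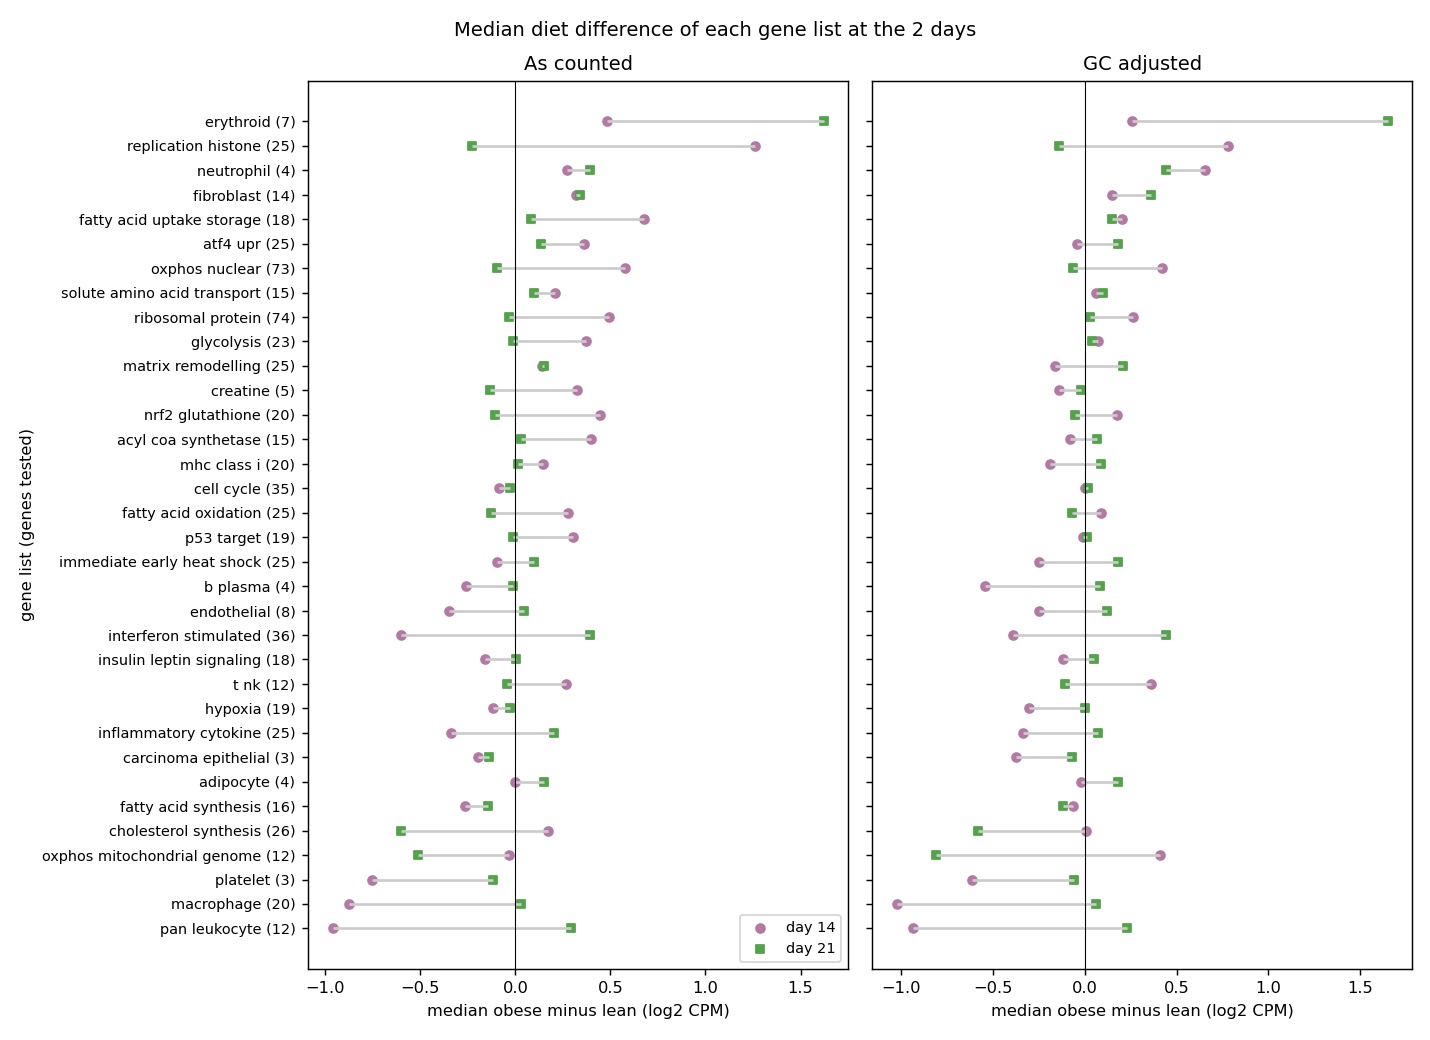
Median obese minus lean log2 difference (x axis) of each gene list (y axis, number of genes tested in brackets) at day 14 (circles) and day 21 (squares), as counted (left) and after GC adjustment (right). The medians of interferon-stimulated, histone and oxidative phosphorylation genes lie on opposite sides of 0 at the 2 days. Those of fibroblast, neutrophil and erythroid markers lie above 0 and that of fatty acid synthesis genes below 0 on both. Of the 4 neutrophil genes tested, 1 was itself above 0 on both days as counted, and 2 after GC adjustment.

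Markers of other cells had their own differences. The 12 pan-leukocyte genes had medians of -0.96 and 0.29, and their mean log2 CPM was lower in obese at day 14 by -0.94 (exact two-sided permutation p = 0.0159) and differed by 0.03 at day 21 (exact p = 0.944). Obese day 21 replicate 4 stood highest of its day at 4.72. Averaged over the days, the difference was -0.45 (adjusted p = 0.260, exact two-sided stratified permutation). Without that library it was -0.61 (adjusted p = 0.0198 by the same test). The 7 erythroid markers had 0.48 and 1.62, and 4 of them were above 0 on both days. Hba-a1, a hemoglobin chain whose near-identical copy makes its count uncertain, had 1.61 and 1.62 at a mean of 1.13 CPM. The mitochondrial share of counts was 5.79% to 8.06% in obese and 8.95% to 12.3% in lean libraries at day 14, and 17.1% to 24.4% and 17.1% to 44.7% at day 21. Its averaged difference was -4.0 percentage points (exact two-sided stratified permutation p = 0.129, adjusted p = 0.301 over 14 values). Without lean day 21 replicate 1, the library at 44.7%, that difference was -0.95. The part of these values in the gene differences was not tested.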

How the data were processed

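The authors deposited whole-number counts per gene, without normalization, of 39017 genes in 19 libraries. TopHat, DESeq and mm10 are named in the submitters' processing notes, with no version. How reads were counted, with which annotation and strand setting, is not given in the sources used here, so overlapping, antisense and near-identical genes are uncertain. Gene positions are as deposited, per the file headers. Symbols and GC content came from GENCODE M21 by identifier (37607 matched), and 230 tested genes without GC content were given the median.

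The members and gene lists were chosen with earlier results of these data known. In R 4.3.3 with edgeR 4.0.16, filterByExpr left 16352 genes in 18 libraries, scaled by TMM. A mean per group was fitted, and the average of the 2 diet differences, each difference and their interaction were tested by quasi-likelihood (glmQLFTest) with Benjamini-Hochberg adjustment at 0.05. SEs came from the fold change and F statistic. The GC adjustment was an offset, a natural spline with 3 df of each library's log2 CPM (prior count 2) minus the gene mean on GC content. CPM was computed here from the deposited counts. Library values were compared by exact permutation within days (15876 regroupings).

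Genes were named by a rule: at least 1 CPM, no Gm, Rik, pseudogene or identifier names; the largest averages among called genes similar in size (as counted and adjusted) and called genes without overlap; where none passed, the 6 each way with the smallest p; up to 3 genes a list; and AU018091, Acsbg1, Slc6a8 and Gatm. Promoters came from RefSeq (GRCm38.p6), and 18 of 27 named genes matched. Alternatives were RLE scaling, other filters, GC models, covariates, DESeq2 1.42.0, limma-voom (limma 3.58.1), the replicate number as a block, all 19 libraries, and each library left out. Fits of chromosomes 1 to 4 with 19 libraries were added after seeing the data. Across 32 pairs of libraries of a group, counts differed beyond sampling noise. The values of 1 gene are not reported here.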

Additional observations from a re-analysis of the deposited data

Results flagged for a closer look

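The named genes, the GC slope and the mitochondrial share gave 116 groups of library values. Of these, 5 held a library whose gap to the nearest other was large for the range of its group, and chance gives about 1 in 20 groups. Rab19 in lean day 21 replicate 2 stood at 1.707 CPM, with the other 3 between 1.17 and 1.261 CPM. Scd1 in obese day 21 replicate 2 stood at 123.8 CPM, with the others between 88.28 and 96.43 CPM, still below every lean library. Slc7a3 in obese day 14 replicate 5 stood at 8.615 CPM, with the others between 11.54 and 12.53 CPM. Arv1 in lean day 21 replicate 1 stood at 4.949 CPM, with the others between 6.343 and 6.567 CPM. Gatm in lean day 21 replicate 5 stood at 87.65 CPM, with the others between 36.32 and 42.70 CPM.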

How the results depend on the processing

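The averaged contrast called 1 gene under GC adjustment, RLE scaling, a filter of 5 CPM in 4 libraries and the fit without mitochondrial and structural RNA genes. It called 2 with no filter, 3 with the GC slope as a covariate, and 0 with the additive model, the pan-leukocyte covariate, all 19 libraries, or chromosomes 1 to 4 with 19 libraries. DESeq2 called 60 and limma-voom 4831; the cause was not tested. With each library left out, calls ranged from 0 to 2655 as counted and 1 to 955 after GC adjustment, the highest without obese day 14 replicate 1. Day 14 calls were 802 with GC adjustment and 0 to 7946 with a library left out, day 21 calls 0 to 1, interaction calls 0 to 5656. Genes similar in size were 714 at a ratio of 0.75 and 2585 after GC adjustment, and genes without overlap 10 to 45 with a library left out. AU018091 lost its call in 15 of 30 alternatives and its sign in 0. Tmem119 reversed with all 19 libraries (0.0012). With the replicate number as a replicate block, calls were 0 in the average (1 with GC adjustment), 4392 at day 14 and 0 at day 21. Same-numbered libraries correlated from -0.40 to 0.55. Day 14 libraries of different number reached -0.38 and 0.37, so these values cannot settle whether the numbers mark pairs. Depth was alike in the 18 libraries; genes near 1 CPM, such as Rab19, rest on few counts.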
